A study of Homo sapiens with 52 samples.

Results

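The Notch set described here holds 10 genes: the receptors NOTCH1, NOTCH2 and NOTCH3, the ligands JAG1, JAG2 and DLL1, and the transcriptional targets HES1, HEY1, HEYL and NRARP. They were matched by gene name, as 10 of 78894 genes in the tables, and their values were read over all 18 groups of cell line and treatment. The data were bulk mRNA sequencing of 52 samples from SUM159PT (17 samples), MDA-MB-231 (18 samples) and HS578T (17 samples), established lines of triple-negative breast cancer that the labels call claudin-low. Each line received an NRP1-targeting siRNA or shRNA, or a non-targeting (NT) one, to ask which transcripts change when NRP1, a co-receptor for semaphorins and vascular endothelial growth factor, is knocked down. The siRNA groups, siNT, siNRP1#3 and siNRP1#5, were transfected at 20 nM and harvested after 72 hrs. In the shRNA groups, shNT, shNRP1#3 and shNRP1#5, a lentivirus brought in the construct, puromycin removed cells without it, and RNA was taken 48 hrs after the cells were seeded. Sequence #3 is directed at transmembrane NRP1 alone and sequence #5 at all NRP1. The #5 sequence is shared by siRNA and shRNA, whereas the #3 sequences of the 2 deliveries differ. Groups held 3 samples, apart from 2 in SUM159PT siNRP1#5 and 2 in HS578T shNRP1#3. Replicates of the shRNA groups were successive passages of the transduced cells, and the sources used here do not say how siRNA replicates were separated, so p-values measure the spread between these samples.

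Notch receptors are single-pass membrane proteins that are switched on by Jagged or Delta-like ligands on a neighbouring cell. Binding lets ADAM proteases and then gamma-secretase cut the receptor, and the freed intracellular part enters the nucleus, where it joins RBPJ and Mastermind proteins on the DNA of target genes. HES and HEY genes encode repressors of the basic helix-loop-helix type, and NRARP encodes an ankyrin-repeat protein that dampens the pathway. In the breast, Notch is known for its part in luminal fate and in tumour growth. On GRCh38, the receptors NOTCH1, NOTCH2 and NOTCH3 lie at chr9:136494433-136546048, chr1:119911553-120100779 and chr19:15159038-15200995, all on the minus strand. The ligands JAG1, JAG2 and DLL1 lie at chr20:10637684-10673999, chr14:105140982-105168824 and chr6:170282206-170306565, also on the minus strand. HES1 lies at chr3:194136148-194138732 on the plus strand, and HEYL and NRARP lie at chr1:39623435-39639643 and chr9:137299631-137302271 on the minus strand.

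HES1 and HEYL are the targets with the RBPJ core in the 250 bases before their transcription start, which is why stretches of these promoters are printed. The core was searched as GTGGGAA on both strands and stood in 5.43% of 35116 promoters of that length. Entries were found for 8 of the 10 genes (RefSeq, GRCh38.p14), all except DLL1 and HEY1. The N-box, CACNAG, a site that HES repressors bind, was also searched on both strands and stood in 32.0% of promoters. In the stretches below, written 5′ to 3′ along the gene, capitals mark RBPJ cores and N-boxes or their reverse complements.
HES1, chr3:194135968-194136110, plus strand: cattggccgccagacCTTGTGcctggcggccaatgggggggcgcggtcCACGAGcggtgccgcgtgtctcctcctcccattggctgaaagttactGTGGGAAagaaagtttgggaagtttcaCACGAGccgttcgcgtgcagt
HEYL, chr1:39639800-39639836, minus strand: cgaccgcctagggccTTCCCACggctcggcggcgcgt
The HES1 core lay at -85 to -79 from the start, between N-boxes on either side, and the HEYL core lay at -178 to -172 on the opposite strand. A match describes letters in a window, and no binding was measured in these samples.

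Libraries held 25310443 to 72003442 expected counts, with a median of 44804505. NRP1 was lower in the knockdown group in all 12 comparisons with the NT control, by 0.70 to 4.88 on the log2 scale, and 11 of them passed an adjusted p of 0.05 (edgeR's quasi-likelihood test, Benjamini-Hochberg). ESR1 and PGR stayed at or below 0.36 TPM. ERBB2 stood at 11.5 to 46.0 TPM in SUM159PT, 15.9 to 48.6 TPM in MDA-MB-231 and 8.46 to 29.7 TPM in HS578T, and its amplification was not tested. CLDN4, a claudin expected to be low in such lines, stood at 62.6 to 226 TPM in MDA-MB-231. It ranged from 0.37 to 27.9 TPM in SUM159PT (median 0.990) and from 0.23 to 25.6 TPM in HS578T (median 1.02). Its highest group means in these lines were 21.7 TPM in SUM159PT shNRP1#5 and 17.0 TPM in HS578T siNRP1#5. In MDA-MB-231, CLDN7 was at 10.4 to 61.5 TPM and CLDN3 at 2.87 to 13.4 TPM. In every line, CDH1 was at most 3.33 TPM and VIM at least 1311 TPM. Across the lines, ZEB1 ranged from 1.29 to 19.7 TPM, SNAI1 from 0.67 to 39.2 TPM and ITGA6 from 2.22 to 123 TPM. The 3 HS578T siNRP1#5 libraries stood apart: over 13 marker genes, at 20 CPM or more in MDA-MB-231 controls and at most 0.5 CPM on average in the controls of the other lines, they carried 8.65% to 16.9% of the MDA-MB-231 level. Replicate 2 also carried 5.13% of the SUM159PT level. HS578T siNRP1#3 libraries carried 1.57% to 4.37% of MDA-MB-231 markers, HS578T siNT libraries 0.467% to 1.2%, and no other library carried more than 2.24% of another line. Values for the HS578T siRNA groups are therefore also given after the amount matching these shares was subtracted, for the members and listed genes whose changes there are named. The source of this marker signal was not tested. In bulk RNA, a fall in the number of cells that express a gene and less RNA per cell cannot be told apart.

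The lines differed in which Notch genes they expressed, as compared over the 6 NT samples of each line. Levels are in TPM, which corrects for transcript length, as mean ± SD (n = 6). The receptor with the highest mean was NOTCH2 in SUM159PT and MDA-MB-231 and NOTCH3 in HS578T. In SUM159PT, NOTCH2 stood at 17.2 ± 5.00, NOTCH3 at 6.40 ± 4.45 and NOTCH1 at 5.63 ± 0.747 TPM, the last pair within their spread. By median that pair was in the reverse order, with NOTCH3 at 4.865 and NOTCH1 at 5.55 TPM. In MDA-MB-231, NOTCH2 led at 32.3 ± 7.22 TPM, followed by NOTCH1 at 14 ± 2.09 TPM, and NOTCH3 was at 0.523 ± 0.231 TPM. In HS578T, NOTCH3 was at 18.1 ± 10.2 TPM, NOTCH2 at 9.78 ± 2.96 and NOTCH1 at 2.43 ± 0.920 TPM. There NOTCH3 was ahead in siNT, with 26.8 ± 4.47 TPM against 9.09 ± 1.92 for NOTCH2 (SD, n = 3), while in shNT the pair lay within their spread, at 9.43 ± 3.91 and 10.5 ± 4.10 TPM. NOTCH3, a receptor best known from smooth muscle of vessels, was higher than in MDA-MB-231 by 4.23 ± 0.59 (log2 fold change ± SE) in SUM159PT and by 5.95 ± 0.63 in HS578T. The adjusted p-values were 9.5e-08 and 1.68e-10 by edgeR's quasi-likelihood test over all 52 samples. NOTCH2 shares reads with its near-identical NOTCH2NL copies, of which NOTCH2NLA alone was listed at 4.65 to 47.0 TPM, and its expected counts were not whole in 50 of 52 libraries, so its level is uncertain.

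Among the ligands, JAG1 was expressed in every line, at 10.2 ± 4.40 TPM in SUM159PT, 10.7 ± 4.54 TPM in MDA-MB-231 and 19.6 ± 11.6 TPM in HS578T. JAG2 followed another order, with 4.11 ± 2.06 TPM in MDA-MB-231, 1.36 ± 0.345 TPM in SUM159PT and 0.127 ± 0.156 TPM in HS578T. DLL1 was at 0.812 ± 0.474 TPM in SUM159PT and 1.10 ± 0.798 TPM in HS578T but 0.0617 ± 0.0214 TPM in MDA-MB-231, a log2 fold change of 3.97 ± 0.37 for SUM159PT against MDA-MB-231. For DLL1 in HS578T against SUM159PT, the difference was -0.03 ± 0.31 (adjusted p = 0.957, edgeR's quasi-likelihood test).

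Of the targets, HES1 was the most abundant member in SUM159PT at 40.5 ± 8.89 TPM, against 10.7 ± 2.24 in MDA-MB-231 and 11.8 ± 4.77 TPM in HS578T. HEY1 and HEYL, sister repressors, were split between the lines. HEY1 was at 1.92 ± 0.805 TPM in SUM159PT and 1.53 ± 0.409 TPM in HS578T, but at 0.195 ± 0.0834 TPM in MDA-MB-231. HEYL was at 1.05 ± 0.167 TPM in MDA-MB-231, and its 6 NT libraries there held 921 counts, against 7 counts in the 6 of SUM159PT and 6 counts in the 6 of HS578T. Scaled to library totals, HEYL was 126-fold higher in MDA-MB-231 than in SUM159PT (95% exact interval 61.1 to 315) and 123-fold higher than in HS578T (56.3 to 336), where the intervals cover counting error only. NRARP was at 1.98 ± 0.642 TPM in MDA-MB-231, 1.54 ± 1.05 TPM in SUM159PT and 0.238 ± 0.145 TPM in HS578T. In all, 8 of 10 members passed the test between SUM159PT and MDA-MB-231, 10 of 10 between HS578T and MDA-MB-231 and 6 of 10 between HS578T and SUM159PT. The shares of all tested genes that passed were 59.4%, 70.2% and 63.5%.

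**Figure D1:**
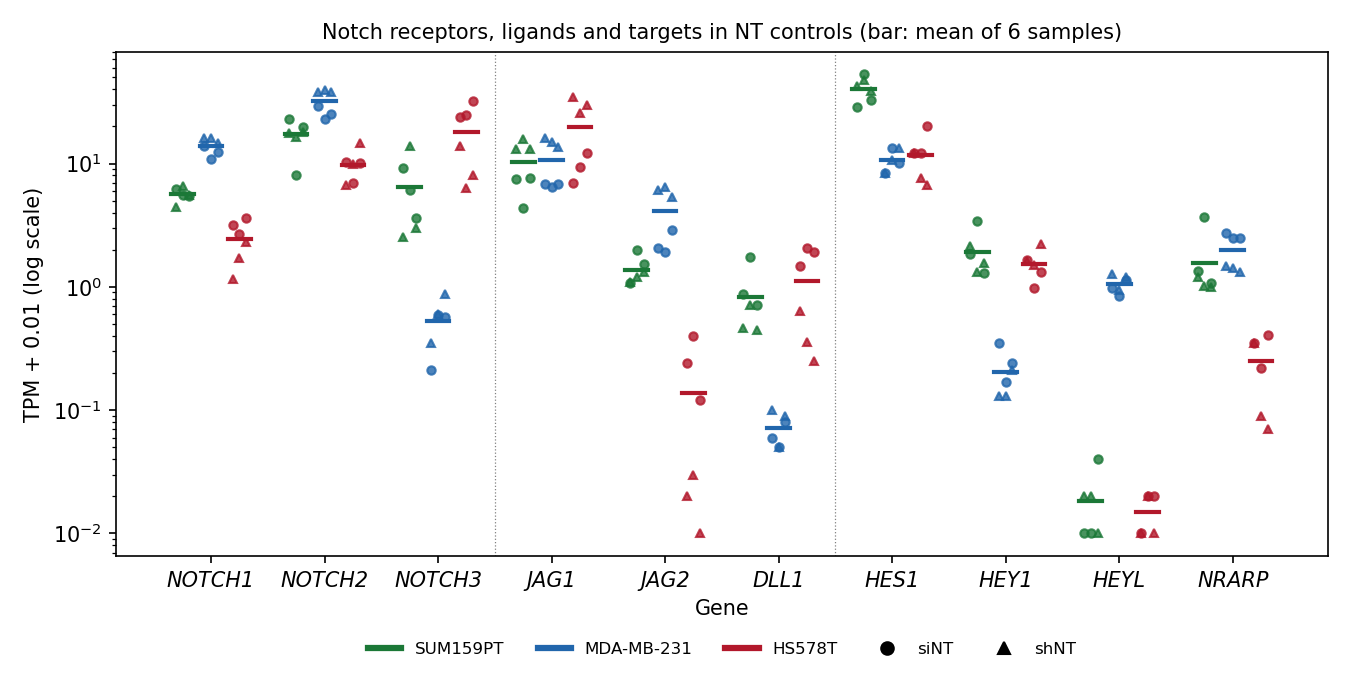
TPM of each Notch gene in the 6 NT samples of each cell line, on a log axis after adding 0.01; circles are siNT samples, triangles shNT samples and bars the mean. NOTCH3, DLL1 and HEY1 sit lowest in MDA-MB-231, whereas HEYL sits at 1.05 TPM there and at or below 0.03 TPM in every NT sample of the other lines.

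Between knockdown and NT groups, every member except NOTCH3 and NRARP passed the test in 1 or more comparisons, and no member passed in more than 4 of its 12 comparisons. Over the 12 comparisons of a knockdown group with its NT control, 18 of 120 tests of a member passed (15%), 9 of them higher and 9 lower, beside 11.3% of all gene tests pooled over the same comparisons. With siNRP1#3, 1 of 10 members passed in SUM159PT (8.66% of all tested genes), 4 of 10 in MDA-MB-231 (25.7%) and 2 of 10 in HS578T (4.65%). With siNRP1#5, 4 passed in HS578T (18.7%), 2 in SUM159PT (17.9%) and 1 in MDA-MB-231 (29.4%). With shNRP1#5, 3 passed in MDA-MB-231 (20.7%), 1 in SUM159PT (5.94%) and 0 in HS578T (0.946%, with 2 at an unadjusted p under 0.05; edgeR's quasi-likelihood test). With shNRP1#3, 0 of 30 tests passed by edgeR's quasi-likelihood test, where 3.65% of all genes did in MDA-MB-231, 1.4% in SUM159PT and 0.0356% in HS578T. Of those 30 tests, 4 had an unadjusted p under 0.05, and DESeq2 and limma on TPM called 0, while the same test without a filter on low counts called 3. The median log2 change of the 10 members with siNRP1#3 was 0.53 in HS578T, -0.69 in SUM159PT and -0.30 in MDA-MB-231, and with siNRP1#5 it was 0.83, -0.10 and 0.32 in the same order, beside -0.01 to 0.03 over all genes. After subtraction, the HS578T medians were 0.37 and 0.56 over 9 members, since HEYL was then not tested. Both sequences of a delivery share their NT samples, so their results are not independent of each other.

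**Figure D2:**
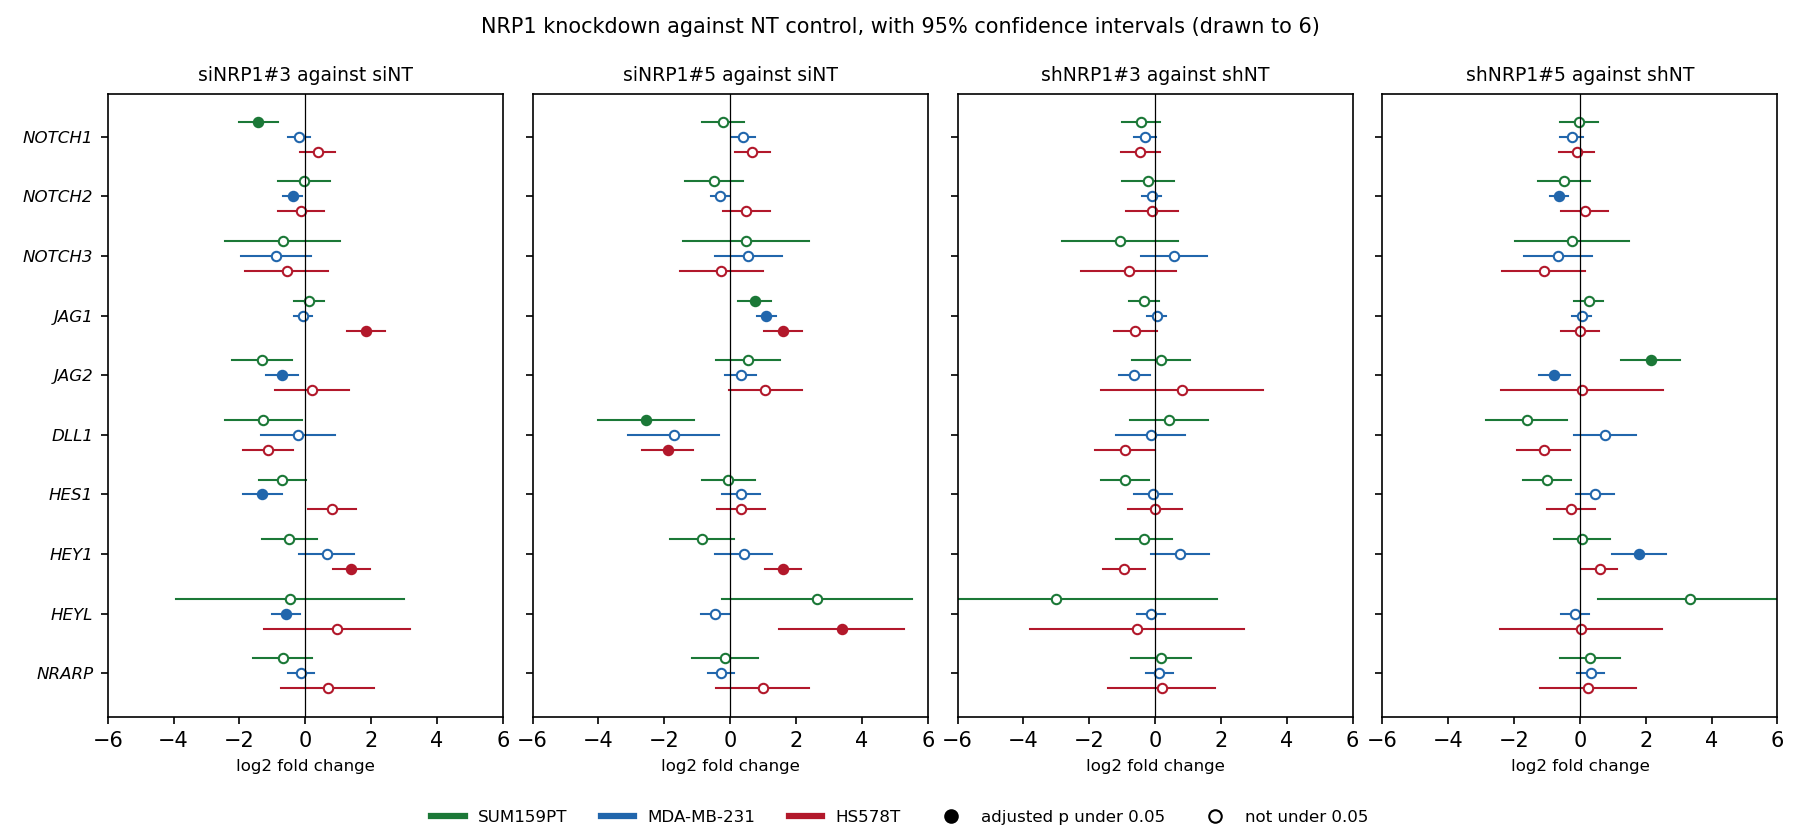
Log2 fold change of each member against the NT control in the 4 kinds of knockdown, with a colour for each cell line and 95% confidence intervals cut at -6 and 6; filled points passed an adjusted p of 0.05. JAG1 is filled on the right in all 3 lines with siNRP1#5, and no point is filled with shNRP1#3.

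Of the receptors, NOTCH1 passed in 1, NOTCH2 in 2 and NOTCH3 in 0 of 12 knockdown comparisons. NOTCH1 fell with siNRP1#3 in SUM159PT, where it stood at 42.9, 38.3 and 35.5 CPM (counts scaled to library size) in siNT and at 9.50, 19.6 and 13.9 CPM in siNRP1#3. All siNRP1#3 samples lay below all siNT samples, a log2 fold change of -1.43 ± 0.28 (adjusted p = 0.00479, edgeR's quasi-likelihood test, as for each adjusted p below unless another is named). The same siRNA left NOTCH1 at -0.18 ± 0.16 in MDA-MB-231 and 0.37 ± 0.25 in HS578T. These 3 effects differed from each other (adjusted p = 0.00209 in the test that they are equal, in which 4 of 10 members and 3.42% of all genes passed), a call lost without replicate 1 or without replicate 3. With siNRP1#5, NOTCH1 in HS578T went from 24.4, 25.5 and 34.9 CPM to 50.4, 40.4 and 44.9 CPM, which did not pass (adjusted p = 0.0716). Of the latter values, 17.3, 13.7 and 9.40 CPM matched the marker shares of the other lines, and after subtraction the change was 0.57 (adjusted p = 0.161).

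NOTCH2 passed in MDA-MB-231, both times lower. It stood at 233, 240.5 and 226 CPM in shNT and at 139, 167 and 141 CPM in shNRP1#5, with no overlap, a log2 fold change of -0.64 ± 0.13 (adjusted p = 0.00261). With siNRP1#3 it went from 193, 167 and 172 CPM to 121, 122 and 158 CPM, a log2 fold change of -0.39 ± 0.13 (adjusted p = 0.0394), which was lost in 4 of 18 fits that left out 1 library (siNT replicate 1 or 3, siNRP1#3 replicate 1 or 2) and with TPM. The test that its effects were equal in the 3 lines did not pass for siNRP1#3 (adjusted p = 0.911) or for shNRP1#5 (adjusted p = 0.483).

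The replicates of NOTCH3 were far apart. In SUM159PT shNT it read 14.4, 67.8 and 14.4 CPM and in siNRP1#3 12.1, 43.8 and 7.09 CPM. In SUM159PT shNRP1#3 it read 4.67, 29.8 and 11.5 CPM. In HS578T it read 145, 182 and 221 CPM in siNT, 109, 42.3 and 44.2 CPM in shNT and 59.0, 21.8 and 9.67 CPM in shNRP1#5. The SE of its knockdown effects was 0.59 to 0.90 in SUM159PT and HS578T, and the changes there, -1.11 to 0.47, did not pass. In SUM159PT shNRP1#3 and HS578T shNRP1#5, where all 3 pairs of same-numbered samples deviated together, NOTCH3 was lower than in the shNT sample of its number in each pair. With replicates blocked by number, these changes were -0.93 ± 0.68 (adjusted p = 0.559) and -1.15 ± 0.55 (0.241). Without a filter on low counts both passed (-1.08 ± 0.28, adjusted p = 0.00783, and -1.09 ± 0.26, 0.00324). There the changes were close to those of the main fit (-1.06 ± 0.83 and -1.11 ± 0.60), and the calls came with the smaller SE. All 3 pairs also deviated together in SUM159PT siNRP1#3 and MDA-MB-231 siNRP1#5, where the NOTCH3 pairs went both ways. In the former, replicate 2 rose from 36.9 to 43.8 CPM while the other pairs fell. In the latter, replicate 2 fell from 1.13 to 0.990 CPM while the other pairs rose. Neither change passed with the block (adjusted p = 0.371 and 0.226) or without the filter (0.119 and 0.207).

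JAG1 was the member that passed most often, in 4 of 12 knockdown comparisons, each time higher. With siNRP1#5, JAG1 in MDA-MB-231 stood at 20.8, 22.0 and 23.3 CPM in siNT and at 46.3, 46.6 and 46.3 CPM in siNRP1#5. The groups were far apart and tight, with a log2 fold change of 1.09 ± 0.14 (adjusted p = 7.54e-06). In SUM159PT, siNT read 30.6, 21.0 and 29.6 CPM and the 2 siNRP1#5 samples 39.1 and 51.0 CPM, both above every siNT sample. That rise of 0.74 ± 0.23 (adjusted p = 0.0375) was the least stable: it was lost in 6 of 17 fits that left out 1 library (each siNT replicate, siNRP1#5 replicate 3, shNT replicate 1 or shNRP1#3 replicate 1). It was also lost with no filter on low counts (adjusted p = 0.0939), when the 2 groups were fitted alone (0.262) and with limma on TPM (0.372).

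In HS578T, JAG1 rose with both siRNAs. It stood at 34.5, 56.2 and 69.2 CPM in siNT, at 178, 169 and 226 CPM in siNRP1#3 and at 125, 128 and 237 CPM in siNRP1#5. Every knockdown sample lay above every siNT sample, and the log2 fold changes were 1.84 ± 0.28 (adjusted p = 0.00144) and 1.61 ± 0.28 (adjusted p = 0.00118). The marker shares of the other lines matched 7.85, 7.50 and 4.27 CPM of JAG1 in siNRP1#5, and after subtraction the rises were 1.90 and 1.90. The siNRP1#3 effect was near 0 in the other lines, 0.12 ± 0.21 in SUM159PT and -0.07 ± 0.14 in MDA-MB-231, and the lines differed (adjusted p = 0.000118, and 0.0939 without replicate 1). For siNRP1#5 the test of equal effects did not pass (adjusted p = 0.112; 2 of 10 members and 18.2% of all genes passed it). With shRNA, the JAG1 changes lay between -0.60 and 0.26 in the 6 comparisons and none passed.

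JAG2 rose in SUM159PT and fell in MDA-MB-231 with shNRP1#5. In SUM159PT it stood at 1.91, 3.41 and 2.58 CPM in shNT and 13.3, 13.5 and 7.55 CPM in shNRP1#5, above all other samples of the line, a log2 fold change of 2.15 ± 0.43 (adjusted p = 0.00615). In MDA-MB-231 it went from 9.93, 10.7 and 9.59 CPM to 6.69, 6.11 and 4.70 CPM, a log2 fold change of -0.78 ± 0.22 (adjusted p = 0.0184), lost in 3 of 18 fits without 1 library (shNT replicate 2, shNRP1#5 replicate 2 or 3). The effects differed between the lines (adjusted p = 0.00154; 1 of 10 members and 3.81% of all genes passed), a call lost without replicate 1 (adjusted p = 0.122). With siNRP1#3, JAG2 in MDA-MB-231 fell from 4.35, 4.08 and 6.62 CPM to 2.75, 2.47 and 3.88 CPM, a log2 fold change of -0.71 ± 0.23 (adjusted p = 0.0307). Without siNT replicate 3 that change was -0.47 and did not pass, it was lost without siNRP1#3 replicate 1 or 2, and it was also lost with TPM (adjusted p = 0.105). In SUM159PT, siNRP1#3 went from 2.7, 5.85 and 3.09 CPM to 1.09, 2.26 and 1.3 CPM, -1.32 ± 0.42, which missed the threshold (adjusted p = 0.0638) and passed when replicates were blocked by number (-1.3, adjusted p = 0.00766), taking the count there from 1 to 2 members. Much of the estimated JAG2 abundance went to transcripts that keep an intron. In the NT samples, the most abundant of them took 33.5% ± 5.43 (SD, n = 6) of the gene's abundance in MDA-MB-231 and 40.5% ± 12.7 in SUM159PT.

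DLL1, a Delta-like ligand at low level, passed in 2 of 12 knockdown comparisons, both times lower with siNRP1#5. In HS578T it read 4.13, 4.76 and 5.96 CPM in siNT and 1.26, 1.49 and 1.25 CPM in siNRP1#5, a log2 fold change of -1.90 ± 0.37 (adjusted p = 0.00253) and of -1.61 after subtraction. In SUM159PT it read 2.64, 6.28 and 1.92 CPM and then 0.394 and 0.810 CPM, a log2 fold change of -2.56 ± 0.69 (adjusted p = 0.0186), which was lost without siNT replicate 2 or without siNRP1#5 replicate 2, and in the fit of the 2 groups alone (adjusted p = 0.108). In MDA-MB-231 the libraries held only 5, 5 and 10 counts of DLL1 in siNT and 1, 1 and 3 in siNRP1#5, and the change did not pass (-1.72 ± 0.65, adjusted p = 0.0546). In SUM159PT shNRP1#5, DLL1 was at 0.744, 0.273 and 0.323 CPM against 0.947, 1.99 and 1.28 CPM in shNT, which did not pass (adjusted p = 0.128). In HS578T it was also lower, without passing, with siNRP1#3 (-1.14 ± 0.36, adjusted p = 0.0799), shNRP1#3 (-0.92 ± 0.43, 0.725) and shNRP1#5 (-1.10 ± 0.38, 0.157). The siNRP1#3 change was called by DESeq2 (-1.12, adjusted p = 0.0259) and was -1.08 after subtraction (0.140). DLL1 was higher, without passing, in MDA-MB-231 shNRP1#5 (0.77 ± 0.45) and SUM159PT shNRP1#3 (0.42 ± 0.56).

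HES1 fell with siNRP1#3 in MDA-MB-231. Its values were 7.68, 13.2 and 9.91 CPM in siNT and 3.14, 4.33 and 4.82 CPM in siNRP1#3, so that every knockdown sample lay below every control, a log2 fold change of -1.31 ± 0.29 (adjusted p = 0.00263). This call held in all 18 fits without 1 library and under the 8 alternative settings. HEYL was lower there too, going from 2.44, 2.32 and 3.08 CPM to 1.98, 1.56 and 1.61 CPM (-0.58 ± 0.21, adjusted p = 0.0439), but this passed in only 9 of 18 fits without 1 library and in 5 of 8 alternatives. In HS578T, siNRP1#3 took HES1 from 17.5, 19.8 and 33.1 CPM to 33.6, 29.5 and 60.5 CPM, which did not pass (0.81 ± 0.35, adjusted p = 0.200, and 0.86 after subtraction, 0.229). The 3 lines differed in the HES1 effect of siNRP1#3 (adjusted p = 0.0200), a call that was lost when replicate 1, 2 or 3 was left out. In SUM159PT, HES1 stood at 48.3, 50.7 and 43.6 CPM in shNT, 22.0, 28.7 and 24.8 CPM in shNRP1#3 and 25, 24.1 and 21.1 CPM in shNRP1#5. Both shRNA groups lay wholly below shNT, with changes of -0.91 ± 0.34 and -0.99 ± 0.34. Neither passed in the fit of all SUM159PT samples (adjusted p = 0.256 and 0.108), and both passed when the groups compared were fitted alone (0.0276 and 0.0130).

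HEY1 passed in 3 comparisons, each time higher. In HS578T it rose with both siRNAs, from 2.73, 2.42 and 3.18 CPM in siNT to 8.10, 7.02 and 6.93 CPM in siNRP1#3 and 8.67, 6.57 and 10.0 CPM in siNRP1#5. No knockdown sample overlapped with siNT, and the log2 fold changes were 1.40 ± 0.26 (adjusted p = 0.00553) and 1.60 ± 0.26 (adjusted p = 0.000838). MDA-MB-231 expresses little HEY1, and after subtraction the rises were 1.45 and 1.94. As shRNA in HS578T, HEY1 changed by -0.94 ± 0.30 with #3 and 0.60 ± 0.26 with #5, and neither passed (adjusted p = 0.406 and 0.229). In MDA-MB-231, HEY1 rose with shNRP1#5 from 0.147, 0.150 and 0.233 CPM (9, 9 and 17 counts) to 0.556, 0.719 and 0.587 CPM (45, 38 and 39 counts), by 1.79 ± 0.39 (adjusted p = 0.00376). HEY1 in SUM159PT changed by -0.86 to 0.07 over its 4 comparisons, and none passed. The siNRP1#5 effects differed between the lines (adjusted p = 0.00189) and so did those of siNRP1#3 (adjusted p = 0.0385), the latter not after subtraction (adjusted p = 0.0523) nor without replicate 1, 2 or 3. The siNRP1#5 difference was lost without replicate 3 (adjusted p = 0.0506).

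**Figure D3:**
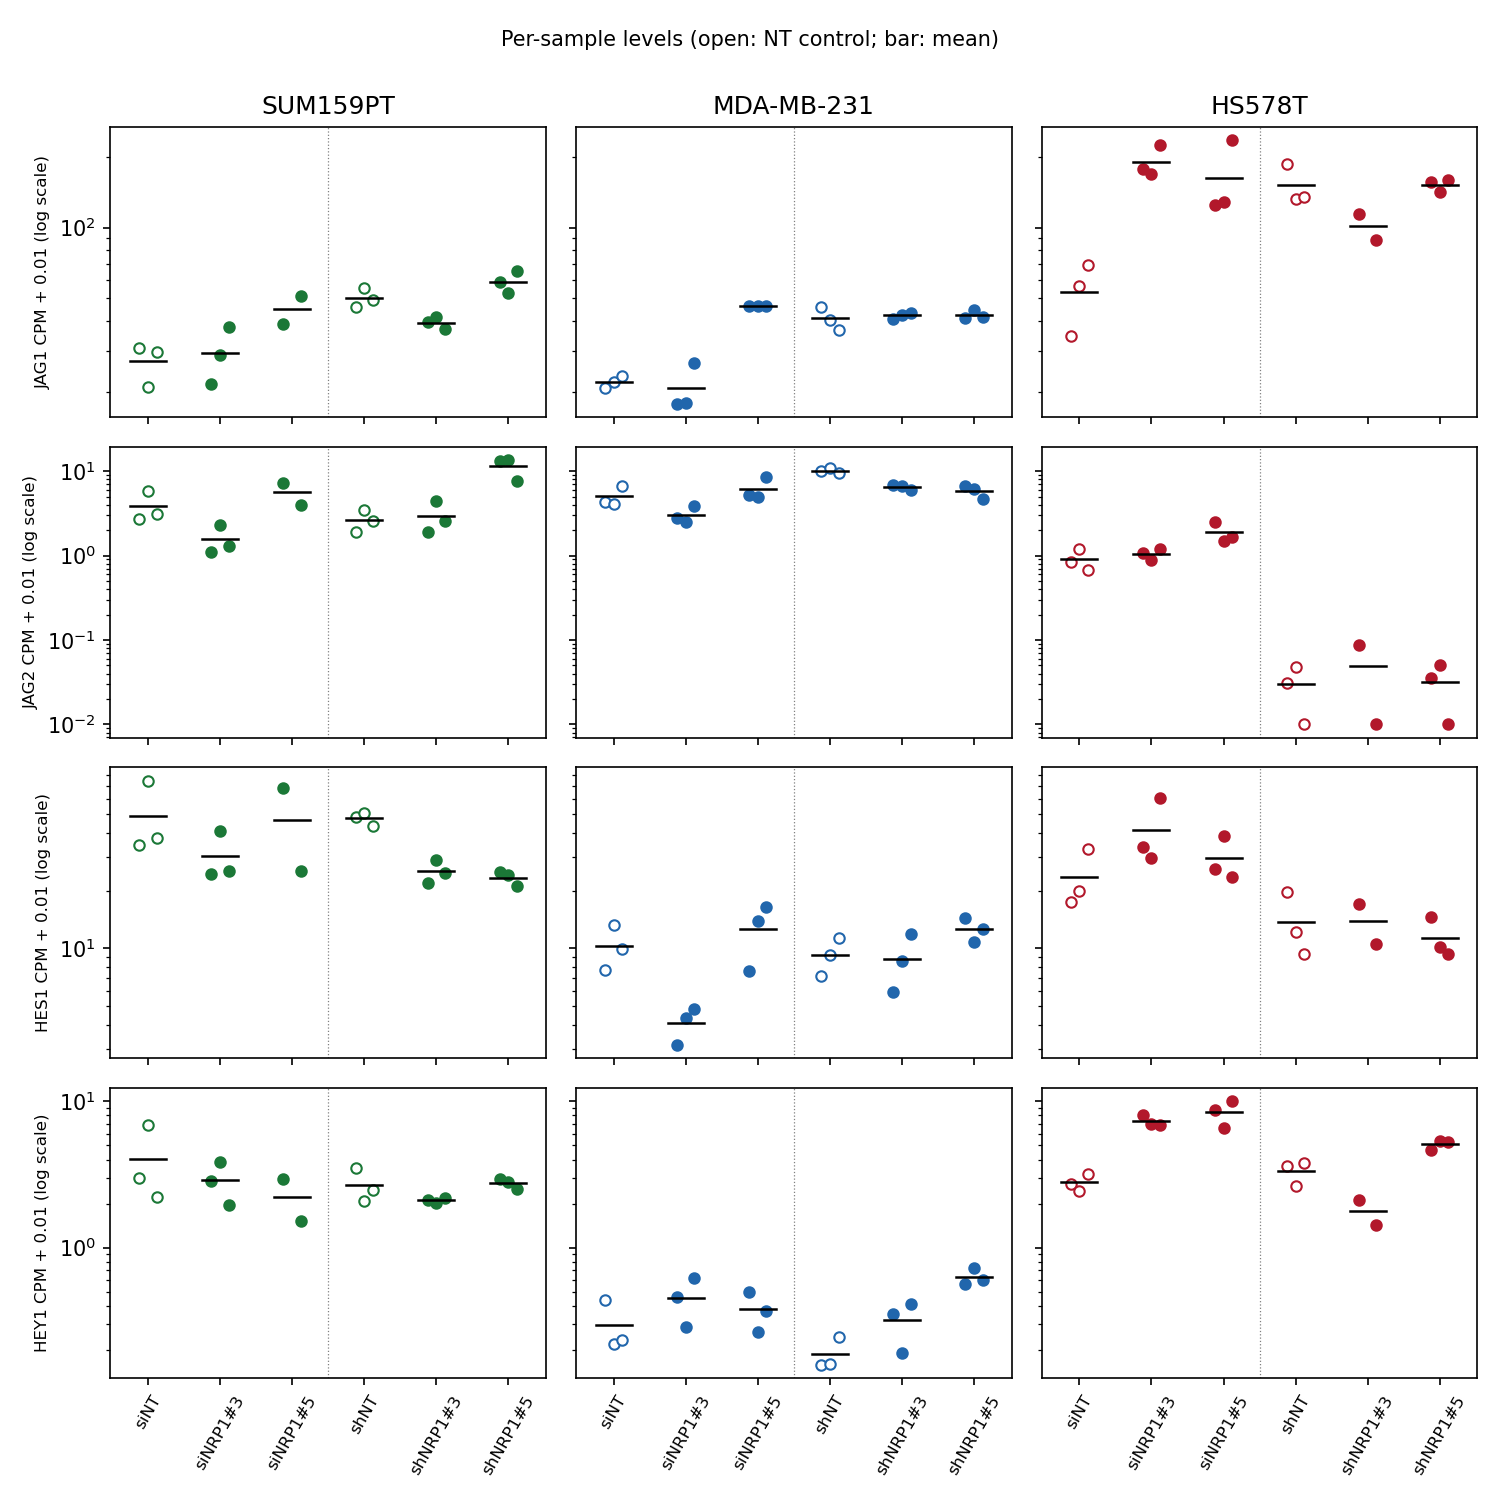
CPM of JAG1, JAG2, HES1 and HEY1 in every sample, on log axes after adding 0.01, by cell line and treatment; open points are NT controls and bars group means. JAG1 is higher in siNRP1#5 than in siNT in all 3 lines, and JAG2 is below 0.1 CPM in all 8 shRNA samples of HS578T.

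HEYL passed in HS578T siNRP1#5, the libraries with the highest levels of the markers of other lines. Its libraries held 0, 2 and 2 counts in siNT and 19, 16 and 11 in siNRP1#5, a pooled ratio of 10.2 (95% exact interval 3.73 to 39.1, counting error only), and edgeR's quasi-likelihood test gave an adjusted p of 0.0159 (0.0502 without siNT replicate 1). The siNRP1#5 values were 0.746, 0.417 and 0.286 CPM, and the amount matching the marker shares of MDA-MB-231 and SUM159PT was 0.658, 0.446 and 0.358 CPM. The order of the 3 libraries by HEYL was that of their MDA-MB-231 share, 16.9%, 13.3% and 8.65%, whereas JAG2 did not follow that order. After subtraction HEYL fell under the filter on low counts and was not tested, and the difference between the lines in its siNRP1#5 effect (adjusted p = 0.00650) did not pass (0.192). That difference was also lost without replicate 1 or 2. JAG2 in the same libraries was 2.51, 1.49 and 1.67 CPM, of which 1.88, 1.45 and 1.02 CPM matched the shares of other lines, and its change of 1.06 ± 0.53 was -0.58 after subtraction (neither passed). HEYL was also higher with #5 in SUM159PT, by 2.63 as siRNA and 3.33 as shRNA. Neither passed (adjusted p = 0.192 and 0.171), but the shRNA change did without a filter on low counts (0.0299). These libraries held 3 to 16 and 2 to 25 counts. Their MDA-MB-231 share was at most 0.143% as siRNA and 1.18% as shRNA. With #5 in MDA-MB-231, HEYL changed by -0.47 and -0.15, and in HS578T shNRP1#5 by 0.03, none passing. The cause of the SUM159PT values was not tested.

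**Figure D4:**
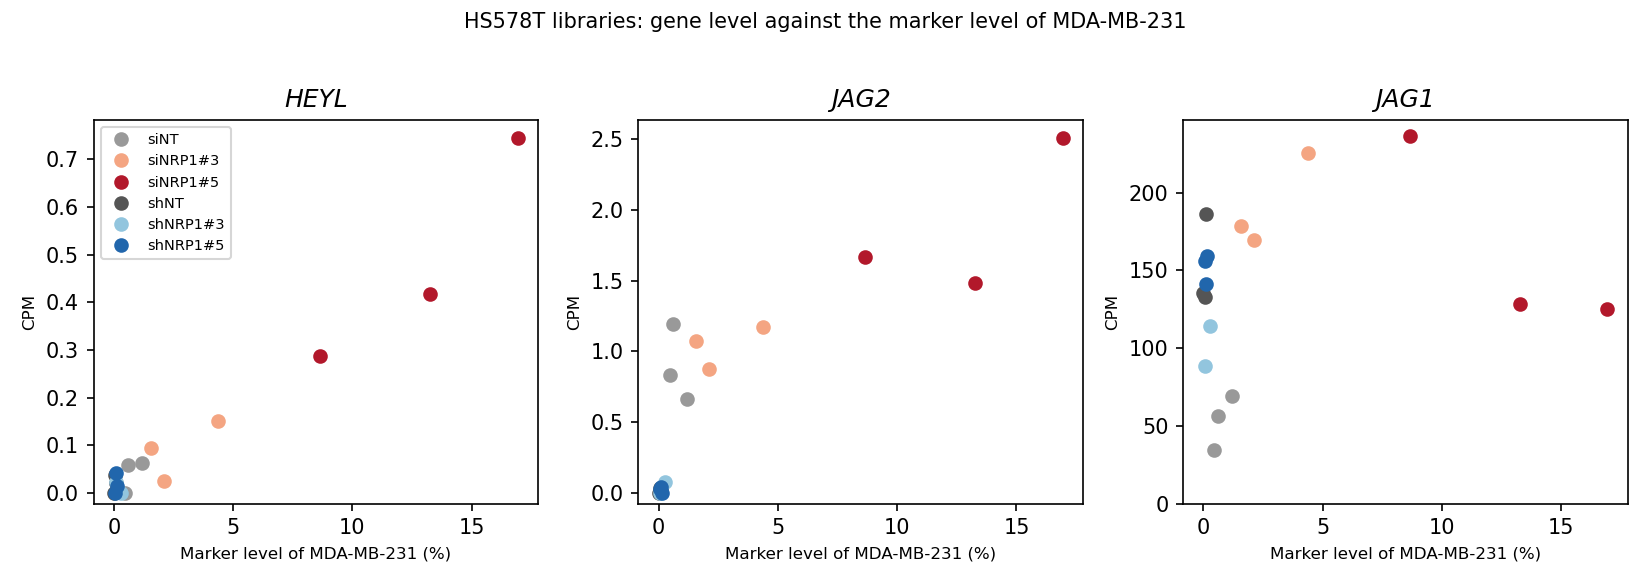
CPM of HEYL, JAG2 and JAG1 in the 17 HS578T libraries against the marker level of MDA-MB-231 in percent, coloured by treatment. HEYL is highest in the siNRP1#5 libraries with the highest share (0.746 CPM at 16.9%), whereas JAG1 reaches 237 CPM at 8.65% and 187 CPM in an shNT library.

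NRARP passed in none of the 12 knockdown comparisons. In MDA-MB-231, it read 4.34, 4.41 and 4.30 CPM in siNT and 3.27, 2.84 and 4.54 CPM in siNRP1#5. The shRNA samples read 2.27, 2.18 and 1.97 CPM in shNT and 2.95, 2.44 and 2.59 CPM in shNRP1#5. The SE of its effects was 0.19 to 0.20 there and up to 0.77 in HS578T, where libraries held 5 to 62 counts. Its largest changes by value, 0.99 ± 0.67 in HS578T siNRP1#5 and -0.69 ± 0.43 in SUM159PT siNRP1#3, did not pass (adjusted p = 0.323 and 0.337). In the former, it read 2.43, 1.28 and 1.56 CPM, of which 0.798, 0.726 and 0.435 CPM matched the marker shares of the other lines, and after subtraction the change was 0.76 (adjusted p = 0.51).

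Sequences #5 and #3 were also compared directly. As siRNA in MDA-MB-231, 5 of 10 members were higher with #5 than with #3 (39% of all genes passed in either direction and 20% in this one): NOTCH1, NOTCH3, JAG1, JAG2 and HES1. HES1 was 7.61, 13.9 and 16.5 CPM with #5, against the 3.14 to 4.82 CPM given above for #3, a difference of 1.63 ± 0.29 (adjusted p = 0.000198). JAG1 differed by 1.16 ± 0.14 and NOTCH3 by 1.44 ± 0.51. In SUM159PT, 2 of 10 were higher with siRNA #5 (29.7%), NOTCH1 by 1.21 ± 0.30 and JAG2 by 1.85 ± 0.46. In HS578T, 0 of 10 passed (18.1% of all genes, with 1 member at an unadjusted p under 0.05), and JAG1 and HEY1, which rose with both, differed by -0.23 (95% interval -0.80 to 0.34) and 0.20 (-0.34 to 0.73). After subtraction, 0 of 9 passed and these differences were 0.00 and 0.48. As shRNA, JAG2 was higher with #5 in SUM159PT (1.97 ± 0.42) and DLL1 lower (-2.04 ± 0.59), 2 of 10 members beside 8.71% of genes. NOTCH2 was lower in MDA-MB-231 (-0.53 ± 0.13, 1 of 10 beside 14.2%). HEY1 was higher in HS578T, with 2.11 and 1.42 CPM with #3 and 4.64, 5.36 and 5.23 CPM with #5 (1.53 ± 0.30, adjusted p = 0.0288, 1 of 10 beside 0.544%).

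Because #5 is the same sequence in both deliveries, its effect as siRNA could be set against its effect as shRNA. In MDA-MB-231, 4 of 10 members differed (23.7% of all genes). JAG1 changed by 1.09 as siRNA and 0.05 as shRNA, a difference of 1.04 ± 0.19 (adjusted p = 0.00061). Its means were 22.0 CPM in siNT and 46.4 CPM in siNRP1#5, against 41.1 CPM in shNT and 42.4 CPM in shNRP1#5. The deliveries were nearer in the #5 groups than in the NT controls. The difference between the siRNA and shRNA effects was 1.10 ± 0.32 for JAG2, 0.66 ± 0.23 for NOTCH1 and -2.49 ± 0.80 for DLL1, the last on 1 to 30 counts per library. Of 18 fits that left out 1 library, JAG1 passed in 18, JAG2 in 16, DLL1 in 12 and NOTCH1 in 6. By edgeR's quasi-likelihood test, 0 of 10 members passed in SUM159PT (2.51% of genes, 1 member at an unadjusted p under 0.05) and 0 of 10 in HS578T (0.854%, 3 members at an unadjusted p under 0.05). For JAG1 the difference was 0.48 ± 0.32 in SUM159PT and 1.61 ± 0.38 in HS578T (adjusted p = 0.409 and 0.0587). NRP1 itself changed by -4.88 as siRNA and -1.05 as shRNA in MDA-MB-231, and the part of that difference in these results was not tested.

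The NT controls of the 2 deliveries differed in Notch genes as well. JAG1 was higher in shNT than in siNT in every line, by 0.86 ± 0.21 in SUM159PT (adjusted p = 0.0166), 0.87 ± 0.14 in MDA-MB-231 (adjusted p = 0.000214) and 1.52 ± 0.28 in HS578T (adjusted p = 0.00218). The shNT samples read 46.1, 55.2 and 49.0 CPM in SUM159PT, 45.9, 40.4 and 36.9 CPM in MDA-MB-231 and 187, 133 and 135 CPM in HS578T, above every siNT sample of their line. In SUM159PT, JAG1 was 1 of 10 members that passed (14.4% of genes), and its call was lost without siNT replicate 2 or shNT replicate 3. In MDA-MB-231, 3 of 10 passed (20.6%): beside JAG1, JAG2 was higher by 0.98 ± 0.23 and NRARP lower, with a change of -1.05 ± 0.19 (adjusted p = 0.000919). In HS578T, 4 of 10 passed (17.9%). DLL1 was lower in shNT, at 1.2, 0.880 and 0.860 CPM (-2.31 ± 0.37, adjusted p = 0.00121), and NOTCH1 was lower at 11.6, 16.6 and 15.7 CPM (-0.93 ± 0.25, adjusted p = 0.0191), the NOTCH1 call being lost without siNT replicate 3 or shNT replicate 1. NOTCH3 did not pass there (-1.48 ± 0.60, adjusted p = 0.0971). It passed with DESeq2 (adjusted p = 0.0494), limma on TPM (0.0330), only the groups compared (0.0220), no filter on low counts (1.55e-06) and the replicate block (0.0482).

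JAG2 was nearly lacking from the HS578T shRNA libraries. It had 22, 41 and 21 counts in siNT and 1, 1 and 0 counts in shNT, where a count of 0 allows up to 0.0833 CPM. The pooled ratio was 47.6-fold higher in siNT (95% exact interval 12.8 to 400, counting error only; adjusted p = 0.00086). The shNRP1#3 and shNRP1#5 libraries of this line held at most 3.26 expected counts. HS578T siNT carried 0.467% to 1.2% of MDA-MB-231 markers and shNT at most 0.108%, and after subtraction the siNT excess remained called (adjusted p = 0.00669). HEY1 differed between the 2 controls by 0.28 ± 0.26 and HES1 by -0.76 ± 0.35 in HS578T, neither past the threshold. The time after seeding or transfection, the puromycin selection and the form of RNA all differed between the deliveries and cannot be told apart.

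**Figure D5:**
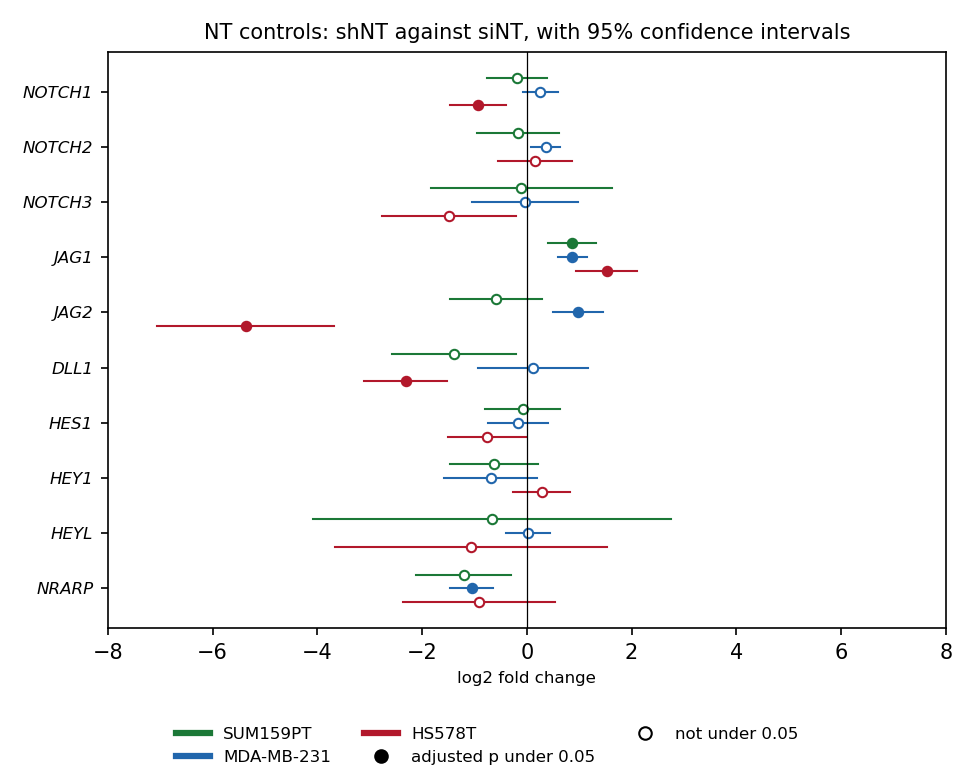
Log2 fold change of each member in shNT against siNT in each cell line, with 95% confidence intervals; filled points passed an adjusted p of 0.05. JAG1 is filled on the right in all 3 lines, and JAG2 is at -5.37 in HS578T.

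The remaining genes of the pathway were read from a list of 41, of which 40 were measured in at least 1 line. In the 12 knockdown comparisons, 30 of them passed at least once, in 66 calls, of which 20 were higher. For siNRP1#3 the counts were 5 of 36 in SUM159PT (8.66% of all genes), 16 of 39 in MDA-MB-231 (25.7%) and 4 of 39 in HS578T (4.65%). For siNRP1#5 they were 8 of 36 (17.9%), 12 of 39 (29.4%) and 9 of 39 (18.7%) in the same order, several of them near the share of all genes. For shNRP1#5 they were 3 of 36 (5.94%), 8 of 39 (20.7%) and 0 of 39 (0.946%), and for shNRP1#3 1 of 36 (1.4%), 0 of 39 (3.65%) and 0 of 39 (0.0356%). After subtraction, 4 of the 4 HS578T calls with siNRP1#3 and 8 of the 9 with siNRP1#5 still passed. The median log2 change of the list lay between -0.16 and 0.08 in these comparisons.

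RBPJ, the DNA-binding protein through which all Notch receptors act, passed in 5 of 6 siRNA comparisons, each time higher, and in 0 of 6 shRNA comparisons. It rose by 1.05 ± 0.22 and 0.76 ± 0.24 in SUM159PT with siNRP1#3 and siNRP1#5, by 0.92 ± 0.21 and 0.95 ± 0.21 in MDA-MB-231, and by 1.32 ± 0.34 in HS578T with siNRP1#5, which was 1.26 after subtraction (adjusted p = 0.0455). Among subunits of gamma-secretase, APH1B was lower in 5 comparisons, by 0.83 to 2.49 on the log2 scale, and APH1A in 4, by 0.66 to 0.96. All 3 lines had lower APH1A and APH1B with siNRP1#5, and after subtraction the HS578T values were -0.78 and -2.02. ADAM10, the main protease of the first cut, was lower in MDA-MB-231 with siNRP1#3 (-1.28 ± 0.14) and shNRP1#5 (-0.50 ± 0.14), and higher in HS578T with siNRP1#5 (1.09 ± 0.27, and 1.06 after subtraction, adjusted p = 0.0297).

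Of the deltex ubiquitin ligases, DTX2 was lower in 5 comparisons, including all 3 with siNRP1#3 (-1.18 ± 0.24 for SUM159PT, -0.80 ± 0.13 for MDA-MB-231 and -0.98 ± 0.26 for HS578T). DTX4 was lower with siNRP1#3 in all 3 lines too (-2.04 ± 0.49, -1.66 ± 0.33 and -2.01 ± 0.51; in HS578T, DTX2 was -1.03 and DTX4 -2.33 after subtraction), and higher with siNRP1#5 in MDA-MB-231 (1.06 ± 0.29) and with shNRP1#5 in SUM159PT (3.49 ± 0.52). The fringe enzyme MFNG, which adds sugars to the receptors, was lower in MDA-MB-231 with siNRP1#3 (-1.66 ± 0.37) and shNRP1#5 (-2.38 ± 0.36). HEY2, the third HEY repressor, was lower in MDA-MB-231 with siNRP1#3 (-1.70 ± 0.45) and siNRP1#5 (-3.41 ± 0.56), and HES7 was lower in 3 comparisons and higher in 1. HES6 was lower in SUM159PT with siNRP1#3 (-1.22 ± 0.29) and higher in HS578T with siNRP1#5 (1.2 ± 0.40, and 1.53 after subtraction), and HES2 was lower in MDA-MB-231 with siNRP1#3 (-1.04 ± 0.21). Among the other receptors and ligands, NOTCH4 was higher in MDA-MB-231 with siNRP1#3 (1.22 ± 0.25). DLL3 was higher with siNRP1#3 in MDA-MB-231 (2.02 ± 0.62) and HS578T (1.13 ± 0.30, and 1.18 after subtraction, adjusted p = 0.0497), and lower with shNRP1#3 in SUM159PT (-1.82 ± 0.32). NEURL1, a ubiquitin ligase for ligands, was higher in MDA-MB-231 with siNRP1#5 (2.92 ± 0.39), and the ligase MIB2 was lower in HS578T with siNRP1#5 (-1.04 ± 0.26), a call lost after subtraction (-0.86, adjusted p = 0.0596). LFNG, another fringe, was higher in SUM159PT with siNRP1#5 (1.67 ± 0.49), and POGLUT1, which puts glucose on the receptors, was lower with siNRP1#3 in SUM159PT (-1.24 ± 0.27) and MDA-MB-231 (-0.85 ± 0.15). MAML2, a Mastermind co-activator, was lower in SUM159PT with siNRP1#5 (-1.2 ± 0.37) and in MDA-MB-231 with shNRP1#5 (-0.94 ± 0.18), and DTX3 was lower with siNRP1#5 in SUM159PT (-1.01 ± 0.30) and HS578T (-1.05 ± 0.21, and -0.98 after subtraction). Before subtraction, all of these passed an adjusted p of 0.05 by edgeR's quasi-likelihood test.

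Within each line and delivery, members varied together only in part. After each line and delivery was centred on its own mean, the highest Pearson correlations of log2 CPM over the 52 samples were 0.554 for JAG2 with HEYL and 0.522 for NOTCH1 with JAG2. Without the 3 HS578T siNRP1#5 libraries, a setting chosen after the data were seen, they were 0.5 and 0.485 over 49 samples, and NOTCH3 with JAG2 was the highest at 0.509. Among 16331 genes tested in every line, those nearest to HES1 were GAREM2 (r = 0.630), ARL6IP4 (0.628) and NQO2 (0.622), and those nearest to HEY1 were SPX (0.685), DDIT3 (0.667) and AOC3 (0.637). Nearest to NRARP were LGALSL (0.764), LPAR2 (0.731) and RGS16 (0.726). HEYL was nearest to CLDN4 (0.755), TMC8 (0.750) and KCNK3 (0.747), and its correlation with CLDN4 was 0.699 without the 3 libraries. These are descriptions over samples that share groups and libraries.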

How the data were processed

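RNA of 52 samples was sequenced as strand-specific, polyA-enriched libraries. The authors trimmed reads with Trim Galore 0.6.5, checked them with FastQC 0.11.9, aligned them to GRCh38 with STAR 2.7.2b and quantified them with RSEM 1.3.3, set for reverse-stranded reads. The deposited gene tables hold RSEM expected counts and TPM, and the deposited transcript tables hold isoform percent values. Transcript counts and transcript TPM were not used, and 0 columns lacked a sample.

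Expected counts were rounded and fitted per cell line with edgeR 4.0.16 in R 4.3.3 (TMM, filterByExpr, robust quasi-likelihood test over 6 groups), and differences between lines over all 52 samples. Adjusted p-values are Benjamini-Hochberg over all tested genes, with a threshold of 0.05. CPM are TMM-normalised. Alternatives used DESeq2 1.42.0, limma 3.58.1 on log2(TPM + 0.5), DESeq2's size factors, no filter, a non-robust fit, a replicate block, only the groups compared, each library left out, HS578T without siNRP1#5, and subtraction of the amount of other lines estimated from marker genes. The share of another line was the median over its markers of the sample's CPM over that line's NT mean. Scripts were tested on simulated data. Tables were read with the data.table package (version 1.17.8) and pandas 2.3.3, and plots drawn with matplotlib 3.10.9 in Python 3.11.15.

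The text names all 10 members, NRP1, genes of a 41-gene Notch list called in the same direction in at least 3 of 12 knockdown comparisons or by at least 1 on the log2 scale in any, and the 3 genes most like each target. The members and lists were chosen with earlier results of these data known. Replicate numbers were shared between groups, but every pair of deviations correlated above 0.1 in only 4 of 13 comparisons with 3 pairs (SUM159PT siNRP1#3 and shNRP1#3, MDA-MB-231 siNRP1#5 and HS578T shNRP1#5). Both comparisons with 2 pairs also did so (SUM159PT siNRP1#5, 0.132 and 0.37, and HS578T shNRP1#3, 0.21 and 0.484), which is too few to show pairing. Intervals on pooled counts are exact at 95%, and a count of 0 was given a limit of 3 counts.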

Additional observations from a re-analysis of the deposited data

Results flagged for a closer look

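The effect of a knockdown differed between the 3 cell lines for 7 pairs of member and knockdown, each by a test of the difference itself (edgeR's quasi-likelihood test over all 52 samples, Benjamini-Hochberg adjusted p). With siNRP1#3 these were JAG1 (0.000118), NOTCH1 (0.00209), HES1 (0.02) and HEY1 (0.0385). JAG1 and HEY1 rose in HS578T, NOTCH1 fell in SUM159PT and HES1 fell in MDA-MB-231, and none of the 4 passed in the same direction in another line. The JAG1 difference was lost without replicate 1, the NOTCH1 difference without replicate 1 or 3, and those of HES1 and HEY1 without replicate 1, 2 or 3. With siNRP1#5, the lines differed in HEY1 (0.00189) and HEYL (0.0065). The HEYL difference did not pass after the amount matching the markers of other lines was subtracted (0.192), whereas that of HEY1 did (0.00129). With shNRP1#5, the lines differed in JAG2 (0.00154), which rose in SUM159PT and fell in MDA-MB-231, and this was lost without replicate 1.

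In MDA-MB-231, the effect of sequence #5 as siRNA differed from its effect as shRNA for 4 members, again by a test of the difference. The adjusted p-values were 0.00061 for JAG1, 0.0172 for JAG2, 0.0292 for DLL1 and 0.0433 for NOTCH1. The DLL1 difference passed in 4 of 8 alternative settings and the NOTCH1 and JAG2 differences in 7 of 8, failing with limma on TPM.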

How the results depend on the processing

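Of 212 values of 26 single calls under alternative settings, 201 kept their direction and side of the threshold, 11 no longer passed and 0 reversed. Summed over the lines, siNRP1#3 gave 4 member calls with limma on TPM against 7, and siNRP1#5 gave 4 against 7 when only the groups compared were fitted. With shNRP1#3 there were 3 calls without a filter on low counts and 2 with only the groups compared, against 0, and with shNRP1#5 there were 8 and 8 against 4. Sequence #5 against #3 as shRNA gave 2 with limma on TPM against 4. The causes were not tested. Leaving out 1 library gave 4 to 8 calls for siNRP1#3, 5 to 8 for siNRP1#5, 0 to 0 for shNRP1#3, 3 to 5 for shNRP1#5, 7 to 9 for shNT against siNT and 2 to 5 for siRNA against shRNA. Leaving out 1 replicate number gave 1 to 4 calls for equal effects over the lines, against 7 (1 without replicate 1, 4 without replicate 2 and 3 without replicate 3), with fewer samples. The siNRP1#3 count was 4 without MDA-MB-231 siNT replicate 3 or siNRP1#3 replicate 2. The count for siRNA against shRNA was 2 without MDA-MB-231 siNT replicate 2, shNT replicate 2 or shNRP1#5 replicate 1, 2 or 3. Same-numbered samples correlated above 0.1 in 24 of 43 pairs. The replicate block also called HES1 in SUM159PT shNRP1#5 (-0.99, adjusted p = 0.0250), NOTCH1 in HS578T siNRP1#5 (0.71, 0.0352) and NOTCH3 in HS578T shNT against siNT (-1.67, 0.0482). The NOTCH3 change was called under other settings as well. JAG2 in HS578T shNT against siNT was -0.53 with limma on TPM (adjusted p = 0.0655). That setting moved the median of all genes by up to 0.15 (log2), over 0.1 in 4 of 15 comparisons. Depth limited DLL1 and HEY1 in MDA-MB-231, HEYL in SUM159PT and HS578T and JAG2 in HS578T, at few counts per library.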

Other observations

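The ligands differed in how their estimated abundance was divided among transcripts in the 6 NT samples of a line. The main protein-coding transcript took 76.7% ± 5.04 (SD, n = 6) of JAG1 in MDA-MB-231, 76.9% ± 4.01 in SUM159PT and 79.4% ± 4.62 in HS578T. For JAG2, a second transcript with a retained intron took 27.3% ± 10.0 in MDA-MB-231 and 26.3% ± 14.9 in SUM159PT. The protein-coding HES1 transcript took 95.9% ± 2.08 in MDA-MB-231, 96% ± 1.62 in SUM159PT and 96.8% ± 0.972 in HS578T. The shares are RSEM estimates of transcript abundance, not counts of reads, and were compared by no test.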
